A study of Mus musculus with 6 samples.

Results

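The miR-17 seed family was measured here by 9 of the 750 miRNA assays on a pair of TaqMan Rodent MicroRNA array cards, A and B. The 9 were picked by name alone, as every assay numbered miR-17, miR-20, miR-93 or miR-106, with any suffix or species, whose name does not end in #, the mark of the opposite arm of a hairpin. They comprise the mouse assays mmu-miR-17, mmu-miR-20a, mmu-miR-20b, mmu-miR-93, mmu-miR-106a and mmu-miR-106b on card A, the rat assays rno-miR-17-3p and rno-miR-20b-3p on card A, and the rat assay rno-miR-20b on card B. Blastocysts of Kunming mice, 300 to a pool, made up 3 vitrified pools (V1 to V3) and 3 fresh pools (F1 to F3). All embryos were collected from superovulated 5-week-old females between 92 and 94 hours after the hCG injection. Vitrified embryos spent 30 seconds in 10% ethylene glycol with 10% DMSO and 25 seconds in EDFS30 inside an open-pulled straw before liquid nitrogen, and were thawed in 0.5 M sucrose for 5 minutes. They were then washed in CZB medium, and the authors scored their survival many hours after warming. No culture of the fresh embryos is described in their paper. A pool averages inner cell mass and trophectoderm over many embryos, so fewer cells of a type and less miRNA per cell cannot be told apart.

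The family is encoded by paralogous polycistronic clusters, miR-17-92, miR-106a-363 and miR-106b-25. A miRNA pairs with its target mRNAs mainly through its seed, bases 2 to 8 of the mature strand, so members of one seed family share most predicted targets. The miR-17 family is known for promoting the G1 to S transition, in part by repressing the cell cycle inhibitor p21, and its members are abundant in embryonic stem cells and other dividing cells of the early embryo.

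The mature sequences of the mouse members are shown because the closeness of their letters bears on how far the assays can be read as separate. They were taken from RefSeq (GRCm38.p6), with each mouse assay taken as the 5p strand, and all 6 names were found there. Capitals mark the seed.

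mmu-miR-17: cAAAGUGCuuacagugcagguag
mmu-miR-20a: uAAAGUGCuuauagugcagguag
mmu-miR-106a: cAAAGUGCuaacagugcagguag
mmu-miR-20b: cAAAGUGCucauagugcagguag
mmu-miR-106b: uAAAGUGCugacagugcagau
mmu-miR-93: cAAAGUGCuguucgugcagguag

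All 6 carried the seed AAAGUGC. With positions counted from 1 at the 5′ end and miR-17 as the reference, miR-106a differed at 1 base (U10A). miR-20a differed at 2 (C1U and C12U) and miR-20b at 2 (U10C and C12U). miR-106b differed at 3 of its 21 bases (C1U, U10G and G20A), and miR-93 at 4 (U10G, A11U, C12U and A13C). The differences thus lay outside the seed, mostly at positions 10 to 13.

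In GRCm38.p6, Mir17 and Mir20a lie on the plus strand of chromosome 14, with mature strands at chr14:115043684-115043706 and chr14:115044183-115044205. Mir106a and Mir20b lie on the minus strand of chromosome X, at chrX:52742541-52742563 and chrX:52742159-52742181. Mir106b and Mir93 lie on the minus strand of chromosome 5, at chr5:138165787-138165807 and chr5:138165574-138165596, inside the gene of the replication licensing factor Mcm7. The miRNA genes of these clusters number 6 within 836 bases on chromosome 14, 6 within 875 bases on chromosome X and 3 within 498 bases on chromosome 5. Each locus therefore contributed 2 members to the mouse assays.

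The rat assays for the 3p strands target the opposite strands. In the mouse, the mature strands of mmu-miR-17-3p and mmu-miR-20b-3p both have the seed CUGCAGU in RefSeq. These assays were picked by their number, and they are kept apart from the seed-sharing members below. The assay rno-miR-20b is counted with the family by its name. No rat sequence was at hand, so its seed and its match to mmu-miR-20b were not checked.

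Before the values, the state of the pools must be given. Pools V1 and F1 stood apart from the other 4. A Ct, the PCR cycle at which a well crosses its threshold and so lower with more template, was determined for 140 (F1) and 218 (V1) of the 750 miRNA assays, against 382 to 409 in V2, V3, F2 and F3. The mean Ct of the U6 snRNA wells, the reference of the study, stayed between 16.52 and 17.82 over both cards and all pools. The miR-290 to miR-295 assays, which mark the mouse blastocyst, were undetermined in V1 and F1 for all 16 assays, and 8 to 10 of the 16 were determined in the other pools, with mmu-miR-292-3p earliest. Markers of other cells were also present. For blood (8 assays), their summed level relative to U6 was 0.0135 in V1 and 0.0192 in F1 against 0.110 to 0.136 elsewhere. For muscle (8 assays) it was 0.000854 in V1 and 0.000371 in F1 against 0.0495 to 0.411. Such sums follow the earliest wells, and the markers did not all move alike. V1 kept 6 blood and 4 muscle assays determined, F1 5 and 4. Muscle marker mmu-miR-145 crossed at 28.55 (V1) and 29.42 (F1) cycles, against 18.52 to 21.30 elsewhere. Blood marker mmu-miR-150 moved less, with 25.05 (V1) and 23.32 (F1) cycles against 22.02 to 24.17. So did muscle marker hsa-miR-206, with 33.07 (V1) and 32.78 (F1) against 30.08 to 32.95. The liver marker mmu-miR-122 was determined only in V3 and F2, and the nerve markers mmu-miR-124 and mmu-miR-9 were undetermined in V1 and F1. The part of these differences in the values below was not tested, and comparisons that use V1 or F1 are also given without them.

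Family miRNAs were detected in every pool. Of the 54 wells of the 9 assays, 39 had a Ct. Of the assays, 4 were determined in all 6 pools, and rno-miR-20b-3p in none. The assay of rno-miR-17-3p had a single late Ct, 37.39 in F1.

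The assay of mmu-miR-17, the first member of the miR-17-92 cluster, had a Ct of 28.35 in V1, 21.79 in V2, 22.01 in V3, 29.70 in F1, 21.43 in F2 and 21.41 in F3. For mmu-miR-106a, its closest relative in sequence, the Ct was 28.48 in V1, 21.83 in V2, 22.04 in V3, 29.95 in F1, 21.38 in F2 and 21.56 in F3. These values lay side by side in each pool, and V1 and F1 were the late pools for both. The assay of mmu-miR-20a, encoded downstream of miR-17, had a Ct of 31.15 in V1, 21.88 in V2, 21.76 in V3, 21.79 in F2 and 22.39 in F3, and was undetermined in F1.

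The other mouse members crossed the threshold later. The assay of mmu-miR-106b, of the Mcm7 locus, had a Ct of 31.54 in V1, 24.22 in V2, 24.42 in V3, 34.62 in F1, 24.01 in F2 and 24.30 in F3. For mmu-miR-20b, of the X-linked cluster, the Ct was 31.76 in V1, 24.67 in V2, 24.57 in V3, 35.31 in F1, 24.46 in F2 and 24.54 in F3. Vitrified and fresh pools overlapped for both. The assay of mmu-miR-93, the neighbour of miR-106b, had a Ct of 34.40 in V1, 24.66 in V2, 24.31 in V3, 24.49 in F2 and 24.81 in F3, and was undetermined in F1. The rat assay rno-miR-20b on card B was undetermined in V1 and F1, and its Ct was 30.76 in V2, 30.19 in V3, 30.82 in F2 and 30.57 in F3.

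**Figure D1:**
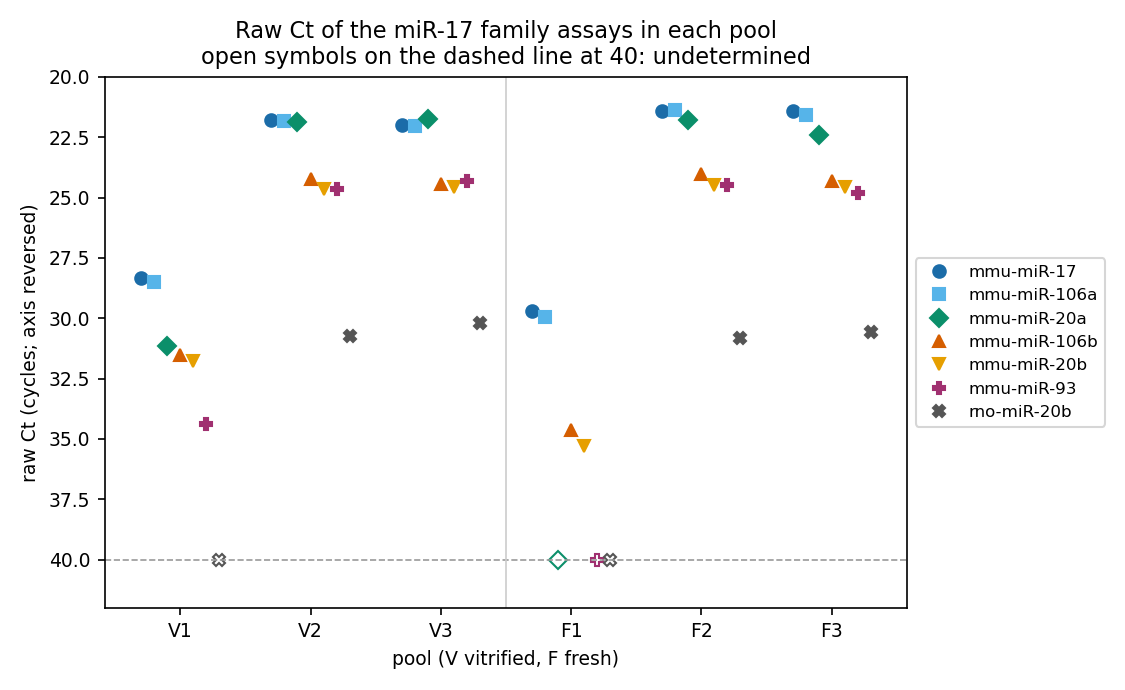
Raw Ct (vertical axis, cycles, reversed so that more template is higher) of 7 family assays in the 3 vitrified (V) and 3 fresh (F) pools; each symbol is 1 well, and open symbols at 40 are undetermined wells. In V2, V3, F2 and F3 the mouse assays form an early group between 21.38 and 22.39 and a late group between 24.01 and 24.81, and in V1 and F1 all are later.

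Outside V1 and F1 the 6 mouse assays thus fell into 2 groups, mmu-miR-17, mmu-miR-106a and mmu-miR-20a between 21.38 and 22.39 cycles, and mmu-miR-106b, mmu-miR-20b and mmu-miR-93 between 24.01 and 24.81 cycles. Within a pool the gap between the groups was 1.90 to 2.34 cycles. These are Ct values of different assays, and a Ct depends on the efficiency of the assay as well as on the amount of miRNA. Members of the early group ranked between 8 and 27 by Ct among the miRNA assays determined on card A in these pools, and those of the late group between 42 and 64.

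By mean Ct over the 5 pools in which all 6 were determined, the order was mmu-miR-17, mmu-miR-106a, mmu-miR-20a, mmu-miR-106b, mmu-miR-20b and mmu-miR-93. Neighbours were compared within pools by 2-sided exact sign-flip permutation tests, adjusted over the 5 pairs. mmu-miR-20b was later than mmu-miR-106b in 6 of 6 pools, by 0.37 ± 0.20 cycles (SD, n = 6; exact p = 0.0312, adjusted p = 0.156). mmu-miR-106b was later than mmu-miR-20a in 5 of 5 pools, by 1.90 ± 0.89 cycles (SD, n = 5; exact p = 0.0625, the smallest that 5 pools allow, adjusted p = 0.156). The spacing of mmu-miR-106a after mmu-miR-17 was 0.09 ± 0.11 cycles (SD, n = 6; exact p = 0.125, adjusted p = 0.208). It was 0.74 ± 1.16 cycles for mmu-miR-20a after mmu-miR-106a (SD, n = 5; exact p = 0.188), and 0.53 ± 1.19 cycles for mmu-miR-93 after mmu-miR-20b (SD, n = 5; exact p = 0.438). Without V1 and F1 these last 3 spacings were 0.04 ± 0.08, 0.25 ± 0.48 and 0.01 ± 0.22 cycles (SD, n = 4), and mmu-miR-93 was later than mmu-miR-20b in 2 of 4 pools. The spacing of mmu-miR-20b after mmu-miR-106b was then 0.32 ± 0.15 cycles and that of mmu-miR-106b after mmu-miR-20a 2.28 ± 0.31, each in 4 of 4 pools (SD, n = 4; exact p = 0.125, the smallest that 4 pools allow). Over all pools, no pair of neighbours passed the adjusted threshold of 0.05. Exact tests over 5 or 6 pools could not reach it after adjustment over the 5 pairs. An unadjusted exact p under 0.05 was found for 1 of the 5. The order itself was taken from the Ct of these same pools.

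The level of the family moved little among V2, V3, F2 and F3. The Ct range over these 4 pools was 0.20 cycles for mmu-miR-20b, 0.41 for mmu-miR-106b, 0.50 for mmu-miR-93, 0.60 for mmu-miR-17, 0.63 for mmu-miR-20a and 0.66 for mmu-miR-106a. Over the 196 miRNA assays of card A determined in all 4, the median range was 1.42 cycles and the lower quartile 0.83, so that all 6 lay below the lower quartile. This was not particular to the family: the cluster partners mmu-miR-19b (0.27 cycles), mmu-miR-19a (0.45), mmu-miR-25 (0.49) and mmu-miR-92a (0.65) also lay below that quartile, and mmu-miR-18a ranged over 1.18 cycles. For mmu-miR-295 of the blastocyst cluster the range was 3.04 cycles. The median Ct of the assays determined on card A was 27.29 to 27.89 in these pools, later than any of the 6 members. Ranges were not compared among assays of like Ct.

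The question of the study was whether vitrification changes miRNA levels in the blastocyst. ΔCt was the Ct of an assay less the U6 mean on the same card in the same pool, undetermined wells were excluded, and −ΔCt was compared between vitrified and fresh pools with limma over 335 miRNA assays that had at least 2 values per group. Of the 9 family assays 7 entered this comparison, and rno-miR-17-3p and rno-miR-20b-3p did not.

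No difference between vitrified and fresh blastocysts was detectable for any of the 7. In limma, 0 of the 7 passed an adjusted p of 0.05 (Benjamini-Hochberg over all 335 assays, of which 0% were called), and 0 had an unadjusted p-value under 0.05, against 0.299% of all assays. An unmoderated equal-variance comparison also called 0 of the 7. The adjusted p was 0.998 for each in limma. The log2 fold change was above 0, that is higher in vitrified pools, for 5 of the 7, against 48.1% of all assays tested, and the median was 0.55 against −0.05 over all assays. No member had vitrified and fresh values that did not overlap, against 15.2% of all assays.

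The ΔCt of mmu-miR-17 was 6.76 ± 3.28 (SD, n = 3) after vitrification against 7.31 ± 4.61 (SD, n = 3) without it, a log2 fold change of 0.55 (standard error 2.71; 2-sided exact permutation p = 0.9). That of mmu-miR-106a was 6.82 ± 3.33 (SD, n = 3) and 7.42 ± 4.72 (SD, n = 3), a log2 fold change of 0.60 (standard error 2.76; exact permutation p = 0.9). Both differences were far smaller than the SD of either group.

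For mmu-miR-106b the ΔCt was 9.43 ± 3.72 (SD, n = 3) after vitrification against 10.77 ± 5.86 (SD, n = 3) without it, a log2 fold change of 1.34 (standard error 3.28; exact permutation p = 0.7). For mmu-miR-20b it was 9.70 ± 3.67 (SD, n = 3) and 11.23 ± 6.06 (SD, n = 3), a log2 fold change of 1.53 (standard error 3.35; exact permutation p = 0.6). The smallest exact p that 3 pools against 3 allow is 0.1.

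The assays of mmu-miR-20a and mmu-miR-93 gave the opposite sign. Their log2 fold changes were −2.32 (standard error 2.92) and −2.61 (standard error 3.09), over 3 vitrified and 2 fresh pools (2-sided exact permutation p = 1.0 for both). F1, the pool in which the other mouse members were latest, was undetermined for both and so left the fresh mean, while V1 stayed in the vitrified mean. Without V1 these values turned to 0.53 for mmu-miR-20a and 0.43 for mmu-miR-93. The 4 members determined in all pools had opposite signs without one or the other of these pools: without V1 their log2 fold changes were 2.44 (mmu-miR-17), 2.52 (mmu-miR-106a), 3.48 (mmu-miR-106b) and 3.65 (mmu-miR-20b), and without F1 they were −2.11, −2.12, −2.05 and −1.97.

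The remaining differences were largest between the pools of number 1. Between V1 and F1 the log2 fold change was 2.08 for mmu-miR-17, 2.20 for mmu-miR-106a, 3.82 for mmu-miR-106b and 4.29 for mmu-miR-20b. Between V2 and F2 it was 0.15, 0.07, 0.31 and 0.31 in the same order, and between V3 and F3 it was −0.59, −0.47, −0.11 and −0.02. The sign of these 4 thus differed between the pairs of number 2 and number 3. For mmu-miR-20a (0.42 and 0.64) and mmu-miR-93 (0.35 and 0.51) it was the same in both pairs.

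Without V1 and F1, the log2 fold changes of the 7 assays lay between −0.22 and 0.53. They were −0.22 for mmu-miR-17 (95% interval −1.70 to 1.26 in limma), −0.20 for mmu-miR-106a (−1.65 to 1.25), 0.10 for mmu-miR-106b (−1.35 to 1.54) and 0.15 for mmu-miR-20b (−1.29 to 1.58). They were 0.53 for mmu-miR-20a (−0.90 to 1.96), 0.43 for mmu-miR-93 (−0.995 to 1.86) and 0.29 for rno-miR-20b (−1.27 to 1.85). Each interval included 0 and also changes of more than 1 log2 unit, so 4 pools could not show whether a change of that size was present.

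In these 4 pools 0 of the 7 passed an adjusted p of 0.05 in limma (0% of 326 assays) and 0 an unadjusted one (4.91% of assays). The median of the 7 was 0.15 against −0.02 over all assays, and 5 of the 7 were above 0, against 49.4% of assays. The vitrified and fresh ΔCt values did not overlap for 2 of the 7, against 28.8% of assays. One was mmu-miR-20a, at 4.79 ± 0.02 (SD, n = 2) after vitrification and 5.32 ± 0.17 (SD, n = 2) without it. The other was mmu-miR-93, at 7.45 ± 0.15 (SD, n = 2) and 7.88 ± 0.04 (SD, n = 2).

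**Figure D2:**
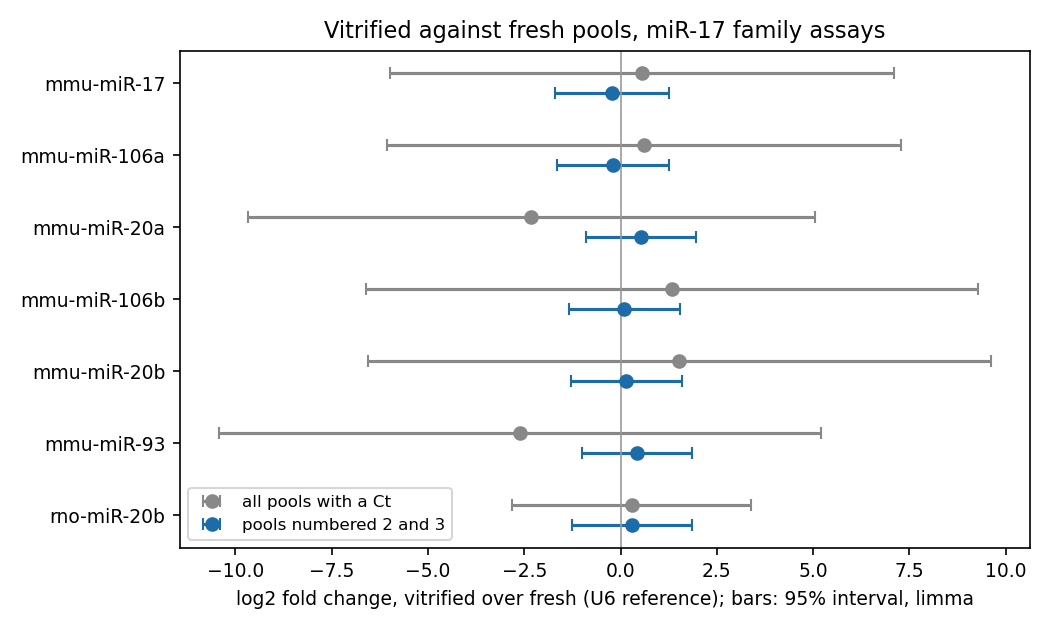
Log2 fold change of vitrified over fresh pools (horizontal axis) for 7 family assays, with U6 as the reference; points are limma estimates and bars their 95% intervals, grey over all pools with a Ct and blue over V2, V3, F2 and F3. All intervals include 0, and the blue estimates lie between −0.22 and 0.53.

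The direction depended on the reference. With the other endogenous controls of the cards in place of U6, 0 of the 7 assays were above 0, and the share of all assays above 0 was 24.2% with a median log2 fold change of −0.78.

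Differences between members within one card and pool need no reference. They were compared between vitrified and fresh pools for all 15 pairs of the 6 mouse assays. In 2-sided exact permutation tests adjusted over the 15 pairs, 0 had an adjusted p under 0.05 and 0 an unadjusted p under 0.05, which 3 pools against 3 cannot reach. The differences between the groups lay between −0.64 and 0.98 cycles over all pools, and between −0.43 and 0.75 without V1 and F1.

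The pair of mmu-miR-17 and mmu-miR-106a, from different chromosomes and 1 base apart, was the closest. The Ct of mmu-miR-17 minus that of mmu-miR-106a was −0.13 in V1, −0.03 in V2, −0.03 in V3, −0.24 in F1, 0.05 in F2 and −0.15 in F3. Both assays thus stayed within 0.24 cycles of each other in all 6 pools, while their own Ct spanned from 21.38 to 29.95 cycles. How far each assay also reads the other miRNA was not tested, and the 2 are uncertain as separate measurements.

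The pair of mmu-miR-17 and mmu-miR-20a, from the same cluster and 2 bases apart, was not as stable. Their Ct difference was −0.09 in V2, 0.25 in V3, −0.35 in F2 and −0.98 in F3, but −2.80 in V1. In F1, where mmu-miR-17 was at 29.70, mmu-miR-20a had no Ct. A vitrified mean of −0.88 ± 1.67 (SD, n = 3) stood against a fresh mean of −0.67 ± 0.44 (SD, n = 2; exact permutation p = 1.0). Without V1 the difference between the groups turned from −0.21 to 0.75 cycles.

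In the other same-locus pairs, V1 or F1 was again the pool out of place. The Ct of mmu-miR-106b minus that of mmu-miR-93 was −0.44 in V2, 0.11 in V3, −0.48 in F2 and −0.51 in F3, but −2.86 in V1. The Ct of mmu-miR-106a minus that of mmu-miR-20b was between −3.08 and −2.53 in the 4 pools and −3.28 in V1, but −5.37 in F1. The group means of the first pair differed by −0.56 cycles (exact permutation p = 1.0) and those of the second by 0.93 cycles (exact permutation p = 0.4). Without V1 and F1 these differences were 0.33 and 0.35 cycles, and without F1 alone that of the second was 0.15.

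**Figure D3:**
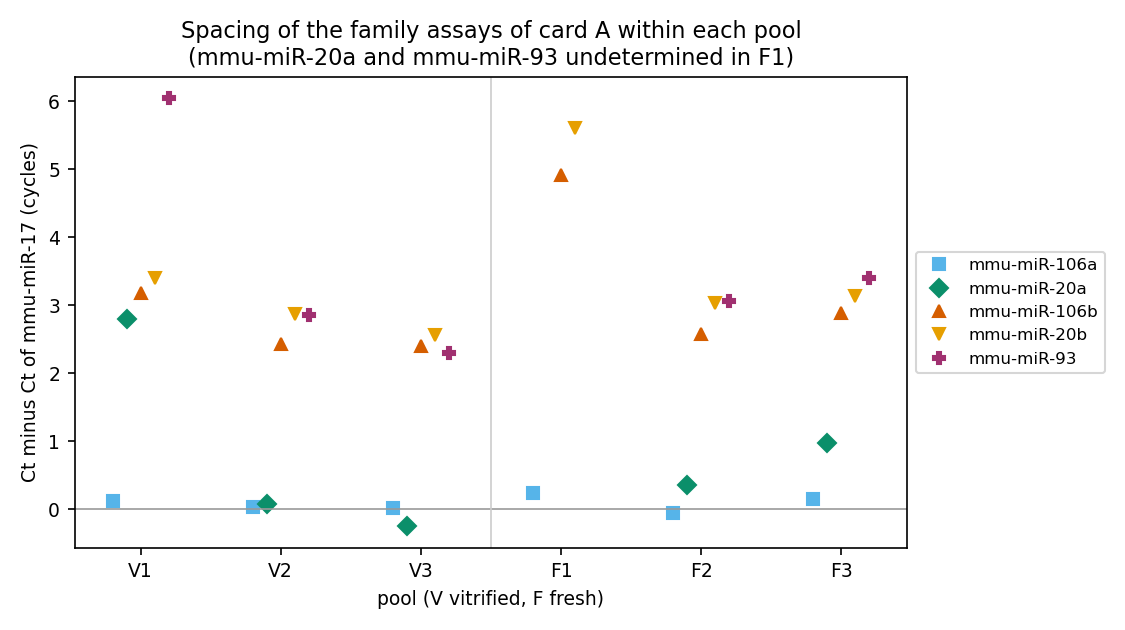
Ct of 5 mouse family assays minus the Ct of mmu-miR-17 in the same pool (vertical axis, cycles; 0 means equal Ct) for the vitrified (V) and fresh (F) pools; each symbol is 1 pool. mmu-miR-106a stays within 0.24 cycles of mmu-miR-17 in every pool, and mmu-miR-20a and mmu-miR-93 are 2.80 and 6.04 cycles later in V1.

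The delay in V1 and F1 could be measured only for assays that kept a Ct there. On card A, 72 of 202 assays with a Ct in V2 and V3 were undetermined in V1 (35.6%), and 136 of 221 with a Ct in F2 and F3 were undetermined in F1 (61.5%). The medians below leave these out, and no order between the family and the whole card is drawn from them. Relative to the mean of V2 and V3, V1 was later by 6.45 cycles for mmu-miR-17, 6.55 for mmu-miR-106a, 7.14 for mmu-miR-20b, 7.22 for mmu-miR-106b, 9.33 for mmu-miR-20a and 9.91 for mmu-miR-93. The median over the 130 card A assays with a Ct in all 3 vitrified pools was 5.65 cycles, and all 6 lay above it. The same delay in F1 was 8.28 cycles for mmu-miR-17, 8.47 for mmu-miR-106a, 10.46 for mmu-miR-106b and 10.81 for mmu-miR-20b, against a median of 6.16 over 85 assays. With a floor at 40 cycles, it was at least 17.9 cycles for mmu-miR-20a and at least 15.3 for mmu-miR-93.

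Of the 50 card A assays whose mean Ct in F2 and F3 lay in the range of the family, 37 (74.0%) had a Ct in F1, as did 4 of the 6 members. The same count in V1 was 40 of 42 assays and 6 of 6 members. The median delay of the assays in this range was 6.29 cycles in V1 and 7.83 in F1, again over those with a Ct in that pool. These are descriptions of 2 pools, with no test.

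**Figure D4:**
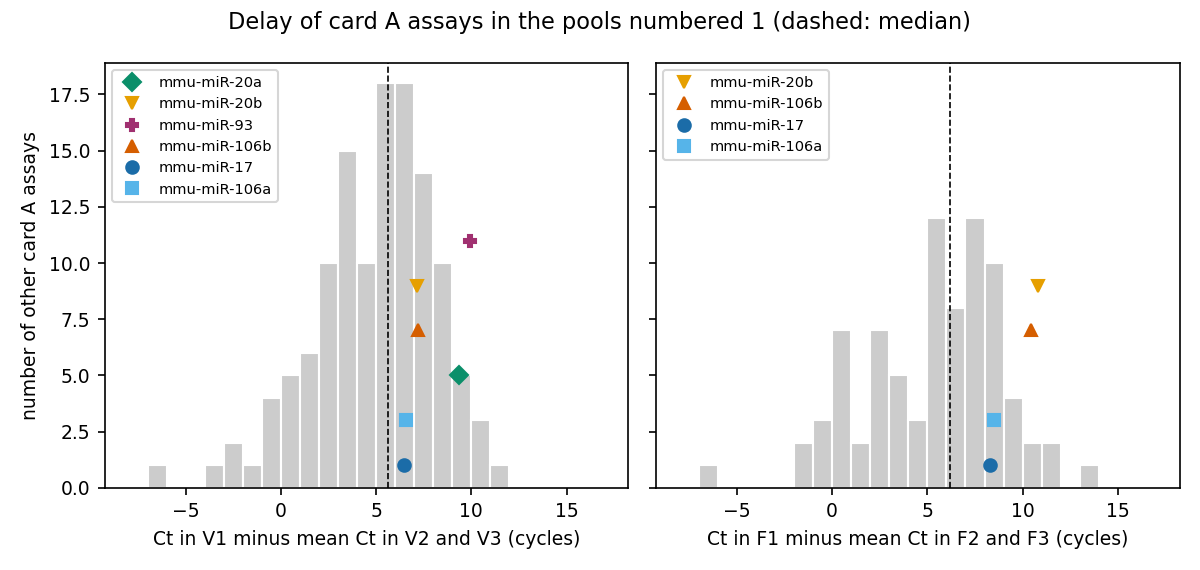
Ct in V1 (left) or F1 (right) minus the mean Ct of the other 2 pools of its group (horizontal axis, cycles); grey bars count the other card A assays with a Ct, coloured symbols are family assays (their height only separates them), and dashed lines are the medians, 5.65 and 6.16 cycles. The family assays with a Ct lie to the right of medians that leave out 72 (V1) and 136 (F1) undetermined assays.

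The strand opposite to each member, marked with # and on card B, was read in fewer wells. Of the 6 assays of this kind, hsa-miR-93# had a Ct in all 6 pools, mmu-miR-20a# and hsa-miR-106b# in V2, V3, F2 and F3, mmu-miR-17# in V2 and F2, and rno-miR-20a# and mmu-miR-20b# in none. In V2, V3, F2 and F3 the ΔCt of the opposite strand exceeded that of the family strand by 1.78 ± 0.65 cycles for miR-93 (SD, n = 4), 4.50 ± 0.45 for miR-106b (SD, n = 4) and 8.86 ± 0.67 for miR-20a (SD, n = 4). For miR-17 it exceeded it by 12.57 cycles in V2 and 12.13 in F2. The assay for the 5p strand was thus the earlier one in these pools for each of these miRNAs.

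In V1 the order was turned for miR-93. The Ct of hsa-miR-93# was 31.09 in V1 and 31.97 in F1, against 27.08 in V2, 26.55 in V3, 26.23 in F2 and 26.27 in F3. Its ΔCt in V1 was below that of mmu-miR-93 by 3.15 cycles, written as a difference of −3.15, and in F1 it had a Ct while mmu-miR-93 had none. Of the 3 opposite-strand assays tested in limma, 0 passed a p of 0.05 with or without adjustment.

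The rat and mouse assays of miR-20b were far apart. The ΔCt of rno-miR-20b on card B exceeded that of mmu-miR-20b on card A by 5.48 in V2, 6.07 in V3, 6.01 in F2 and 5.82 in F3, with a mean of 5.84 ± 0.27 cycles (SD, n = 4). The log2 fold changes of the 2 assays in these pools were 0.29 and 0.15.

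The other miRNAs of the 3 clusters, members of the miR-18, miR-19, miR-25/92 and miR-363 groups, are transcribed with the family but have other seeds. Of their 7 assays on the cards, 5 were tested in limma, where 0 passed a p of 0.05 with or without adjustment. Of the 5, 4 had a log2 fold change above 0, against 48.1% of all assays tested. Vitrified and fresh values did not overlap for 2 of the 5, against 15.2% of all assays. These were mmu-miR-18a and mmu-miR-25, each over 2 pools against 2 (exact permutation p = 0.333, the smallest possible). The 15.2% also covers assays with 3 values per group, which separate less easily. Over V2, V3, F2 and F3, the only pools in which mmu-miR-18a and mmu-miR-25 had a Ct, values did not overlap for 3 of the 5, mmu-miR-19b included, against 28.8% of assays. In V2, V3, F2 and F3 the log2 fold changes were 0.64 for mmu-miR-18a, 0.03 for mmu-miR-19a, 0.17 for mmu-miR-19b, 0.64 for mmu-miR-25 and −0.07 for mmu-miR-92a. mmu-miR-363 had a Ct in V3 only, at 35.13, and mmu-miR-18b in none.

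In V1 and F1 some partners kept a Ct and others did not. mmu-miR-92a was at 28.13 cycles in V1 and 29.13 in F1, and mmu-miR-19b at 28.31 and 31.85. mmu-miR-19a had a Ct of 33.03 in V1 and none in F1, and mmu-miR-18a and mmu-miR-25 had none in either, while all 6 mouse members had one in V1.

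The core of the family seed is also carried by the pluripotency miRNAs of the miR-290 and miR-302 clusters. The letters AAGUGC stood in bases 2 to 8 of 16 of the 1679 mature names in RefSeq (0.953%), and the whole family seed in 7 (0.417%), on the mature strand only. Beyond the members, 8 assays matched such an entry by name, 6 of them with a Ct in any pool. mmu-miR-292-3p, whose name matched no mature entry, is not among them. The pair with the lowest mean Ct among the matched is printed to show the seed, again in capitals, moved by 1 base against that of the family.

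mmu-miR-295: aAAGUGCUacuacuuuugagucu
mmu-miR-291a-3p: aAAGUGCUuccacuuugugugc

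The Ct of mmu-miR-295 was 28.17 in V2, 26.34 in V3, 25.13 in F2 and 27.15 in F3, and that of mmu-miR-291a-3p was 29.85, 27.73, 26.81 and 29.02 in the same order. They spanned 3.04 and 3.03 cycles over these pools, in which no member of the family spanned more than 0.66. None of the 8 had a Ct in V1 or F1, where at least 4 mouse members did.

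Assays whose level moved most like the family were sought by the root mean square distance, in log2 units over the 6 pools, between the centred −ΔCt profile of an assay and the mean profile of the 4 members determined in every pool. The 5 nearest of 118 other assays were mmu-miR-125b-5p (0.46), mmu-miR-30a (0.47), mmu-miR-30c (0.49), mmu-miR-29c (0.51) and mmu-let-7d (0.54). The members themselves lay at 0.38 to 0.52 from their mean, and the median of the other assays was 2.06. The members make up that mean and so lie near it in part by construction, while the other assays do not enter it. The cluster partners mmu-miR-19b and mmu-miR-92a ranked at 6 and 21. All points share the pools, of which V1 and F1 were the latest for each member. In V2, V3, F2 and F3 alone 0 of these 5 were among the 5 nearest, mmu-miR-30a ranked at 24 of 319, and mmu-miR-92a and mmu-miR-19b ranked at 8 and 13.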

How the data were processed

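Total RNA (30 ng per pool) was reverse transcribed, pre-amplified and run for 40 cycles on cards A and B by the authors, and RQ Manager gave their Ct; the deposited values are raw, for 768 wells per pool. The authors' deposited fold changes hold their own comparison and were not used. A Ct of 40 or more, or undetermined, was excluded. For ΔCt, the average over the 4 U6 wells on that card was taken off in each pool. limma 3.58.1 (R 4.3.3, lmFit and eBayes) was run on assays with 2 or more values in each group. It was 2-sided, with Benjamini-Hochberg adjustment over all miRNA assays tested. The step was also run on simulated data with independent noise of equal spread for all assays and pools. That run does not cover pools that stand apart, as V1 and F1 do. Single values were compared with exact permutation tests over pools in Python 3.11.15 with numpy 2.4.6, pandas 2.3.3, scipy 1.17.1 and matplotlib 3.10.9.

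Pools of the same number deviated together from their group means over 122 assays (correlations 0.80, 0.78 and 0.67). V1 and F1 both stood apart, which moves the deviations of the other pools of each group the other way. Correlations between pools of unlike number were not computed, so these values cannot show whether the pools are paired. The main comparison used no pairing, and the sample labels' numbers served as a block only in the alternatives. No 2 pools of a group shared an identical determined Ct. The limma p-values rest on the spread between these pools, moderated over all assays, and the exact p-values on permutations over the pools. The number of pools limits how precise any value is.

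The family, the lists and the tests were chosen with earlier results of these data known. Named were all assays fitting the name rule, their opposite strands, the cluster partners, the 2 earliest assays matched by name to a RefSeq strand with AAGUGC in the seed and the 5 nearest in profile. Alternatives were other references, another Ct limit, filled wells, the pairing, pools left out and other tests. No coordinates come from the deposited values; those given are from RefSeq, GRCm38.p6.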

Additional observations from a re-analysis of the deposited data

How the results depend on the processing

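Across the 18 alternatives of the limma comparison, 0 family assays passed an adjusted p of 0.05 and 0 an unadjusted one, while over all assays the unadjusted count ranged from 0 to 24. Pairing did not change a call: with the replicate number as a block, 0 of 7 family assays and 0 of 330 assays had an adjusted p under 0.05, and 4 assays an unadjusted one, which became 24 with the block and the global mean. The direction was less stable, with 28 of 115 single values on the other side of 0. The log2 fold change of mmu-miR-20a became 3.55 when wells without a Ct were given 40, 1.88 when later Ct and empty wells were given 35, 0.53 with the pairing, 0.86 with the pairing and the global mean, and 0.53 in V2, V3, F2 and F3 alone. That of mmu-miR-93 became 2.40, 0.73, 0.43, 0.77 and 0.43 under the same 5. By construction, the block and these 4 pools leave V1 out for both. With the other endogenous controls as the reference the values were −0.34 for mmu-miR-20b, −0.53 for mmu-miR-106b, −1.32 for mmu-miR-17, −1.26 for mmu-miR-106a and −0.51 for rno-miR-20b, and the median of all assays moved from −0.05 to −0.78. It was 0.12 with the global mean, −0.35 without a reference, and the share of assays above 0 was 54.9% and 40.0%, against 78.1% and 81.5% over all 750 assays with empty wells given 40 or 35. With a limit of 35 cycles, which removes F1, mmu-miR-20b was at −1.97. In V2, V3, F2 and F3 alone mmu-miR-17 was at −0.22 and mmu-miR-106a at −0.20. Leaving out single pools gave log2 fold changes from −3.75 to 0.53 for mmu-miR-20a, −4.19 to 0.43 for mmu-miR-93, −1.97 to 3.65 for mmu-miR-20b, −2.05 to 3.48 for mmu-miR-106b, −2.11 to 2.44 for mmu-miR-17 and −2.12 to 2.52 for mmu-miR-106a.

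For the differences between members, 0 of 15 pairs passed under each of the 9 alternatives. With so few pools the exact tests could not give a p under 0.05 in any of them, so these counts were fixed in advance. The difference of mmu-miR-17 minus mmu-miR-20a between groups, −0.21 cycles, became 0.75 in the 4 pools and with the pairing, and 3.00 with undetermined wells set to 40. That of mmu-miR-106b minus mmu-miR-93, −0.56, became 0.33, 0.33 and 1.06. With pools left out these ranged from −0.77 to 0.75 and from −1.15 to 0.33, that of mmu-miR-17 minus mmu-miR-106a from −0.013 to 0.13 and that of mmu-miR-106a minus mmu-miR-20b from 0.15 (without F1) to 1.34, with 0.35 in the 4 pools. Of the 5 assays nearest to the family, 0 were shared in the 4 pools and 2 with the global mean as the reference. With the global mean the distances of these 5, all on card A, were unchanged. The assay hsa-miR-93# on card B moved from rank 36 (distance 1.41) to rank 2 (0.30). The cause of the change in the 4 pools was not tested. The order of neighbours gave 0 adjusted calls in the 4 pools, where no exact p can be below 0.125. The difference between the miR-93 strands was 0.80 cycles over the 5 pools in which both had a Ct, with −3.15 in V1. It was 1.78 in these 4 pools, a comparison chosen after seeing the data.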
